A study of Mus musculus with 4 samples.

Results

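The transforming growth factor beta (TGF-beta) and activin ligands were examined together with the proteins that hold TGF-beta in its latent form, as 10 genes of the 32285 genes in the count matrices. The members were found by gene symbol. They were the TGF-beta ligands *Tgfb1*, *Tgfb2* and *Tgfb3*, the activin subunits *Inhba* and *Inhbb*, the latent TGF-beta binding proteins *Ltbp1*, *Ltbp2*, *Ltbp3* and *Ltbp4*, and *Lrrc32*, which encodes the cell surface anchor GARP. They were measured by single-cell RNA sequencing in 4 libraries of tibial muscle taken from *Nse-Bmp4* mice, a C57BL/6 model of heterotopic ossification in which the neuron specific enolase promoter drives *Bmp4*. Muscles of mice aged 6 to 8 weeks were left without injury (Uninjured) or collected after 1, 3 or 7 days (1, 3 and 7 dpi, days post injury), the injury being an injection of cardiotoxin, a snake venom toxin that kills muscle fibres. Each library pooled 3 tibial muscles, and all 4 groups carried the transgene, so the libraries hold no muscle without it. With 1 library per time point no test between time points was possible, and a change over time cannot be told apart from a difference between libraries.

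TGF-beta is secreted in a latent complex, in which the mature dimer stays enclosed by its own propeptide until integrins or proteases release it. LTBP1, LTBP3 and LTBP4 bind that propeptide by a disulfide bond and fasten the complex to fibrillin and fibronectin in the matrix, while LTBP2 does not bind it and is a component of elastic and fibrillin fibres. GARP takes the place of an LTBP on the surface of regulatory T cells, platelets and endothelial cells. The product of *Inhba* dimerizes to activin A and that of *Inhbb* to activin B, both of which act through the same Smad2 and Smad3 as TGF-beta and are neutralized by follistatin.

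The 10x platform tags the transcripts of each cell with unique molecular identifiers (UMIs), which were deposited as whole-number counts per gene and cell. The libraries held 11722 to 23752 cells and 91146335 to 129007669 UMIs, and the median depth went from 8629 UMIs per cell in Uninjured to 3083 at 7 dpi. After filters, 52852 of 62665 cells were kept, and any pair of libraries shared 30 to 95 cell barcodes. Cells were assigned to classes by lists of 8 marker genes, none of them a member, and 12.6% of the kept cells reached no class. The largest class was the mesenchymal class (*Pdgfra*, *Prrx1*, *Col6a3* and other markers), with 8366 cells in Uninjured, 3756 at 1 dpi, 5989 at 3 dpi and 10017 at 7 dpi, in which *Ptprc*, the pan-leukocyte gene, was found in 0.562% to 7.72% of cells. A class of 4512 chondrocytes, carrying cartilage genes such as *Acan* and *Col9a1*, was present at 7 dpi only. Levels are given in CPM, for which the cells of a class were pooled and each gene's UMIs were scaled to the total UMIs of that pool, where the class held at least 50 cells. Numbers in parentheses after a CPM are 95% exact Poisson intervals, and those after a ratio of 2 CPM values are exact binomial intervals. Both take each UMI as independent and cover counting error only, not the spread between cells or between animals.

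The members lie apart from each other in the mouse genome. On GRCm38, *Tgfb1* spans chr7:25687002-25705077 on the plus strand, *Tgfb2* chr1:186622792-186705989 on the minus strand and *Tgfb3* chr12:86056745-86079041 on the minus strand. *Inhba* spans chr13:16011851-16031621 on the plus strand and *Inhbb* chr1:119415465-119422248 on the minus strand. *Ltbp1* spans chr17:75005568-75392512 (plus), *Ltbp2* chr12:84783212-84876532 (minus), *Ltbp3* chr19:5740904-5758532 (plus), *Ltbp4* chr7:27305136-27337692 (minus) and *Lrrc32* chr7:98489283-98502181 (plus). All 10 are protein-coding in GENCODE M21. *Tgfb2*, *Tgfb3*, *Inhba* and *Ltbp2* are overlapped by genes on the opposite strand (*Gm29491*; *Ttll5* and *Gm48008*; *Gm48444*; and *D030025P21Rik*), and whether the counting used strand is not given in the sources used here.

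RefSeq promoters of GRCm38.p6, from 250 bases before to 50 bases after a gene's start, were matched for 8 of the 10 members, all but *Tgfb3* and *Lrrc32*. Shown are those of the 4 members whose mesenchymal levels are described in most depth below, namely *Tgfb1* at chr7:25686752-25687051 (plus), *Inhba* at chr13:16011601-16011900 (plus), *Ltbp2* at chr12:84876442-84876741 (minus) and the most upstream of 3 listed *Ltbp4* starts at chr7:27337563-27337862 (minus). They are written 5′ to 3′ on the strand of the gene, and capitals mark GC boxes (GGGCGG on either strand).
Tgfb1: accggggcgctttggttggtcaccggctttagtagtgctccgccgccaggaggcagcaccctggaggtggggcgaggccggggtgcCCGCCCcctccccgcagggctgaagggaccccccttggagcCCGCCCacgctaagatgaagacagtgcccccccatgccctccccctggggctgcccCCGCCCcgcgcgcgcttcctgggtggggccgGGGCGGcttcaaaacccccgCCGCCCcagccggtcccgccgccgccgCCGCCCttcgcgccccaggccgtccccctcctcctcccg
Inhba: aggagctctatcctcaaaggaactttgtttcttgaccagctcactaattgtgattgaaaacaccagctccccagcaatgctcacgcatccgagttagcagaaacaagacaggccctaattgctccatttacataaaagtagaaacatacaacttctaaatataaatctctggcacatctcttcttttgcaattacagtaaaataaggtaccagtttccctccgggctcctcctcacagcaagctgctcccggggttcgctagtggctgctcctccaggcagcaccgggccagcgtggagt
Ltbp2: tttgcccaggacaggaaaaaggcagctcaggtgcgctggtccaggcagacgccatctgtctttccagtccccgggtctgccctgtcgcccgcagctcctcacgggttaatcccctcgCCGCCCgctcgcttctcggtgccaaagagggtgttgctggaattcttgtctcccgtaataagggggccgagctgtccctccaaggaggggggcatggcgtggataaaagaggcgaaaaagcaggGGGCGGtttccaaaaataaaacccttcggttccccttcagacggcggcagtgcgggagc
Ltbp4: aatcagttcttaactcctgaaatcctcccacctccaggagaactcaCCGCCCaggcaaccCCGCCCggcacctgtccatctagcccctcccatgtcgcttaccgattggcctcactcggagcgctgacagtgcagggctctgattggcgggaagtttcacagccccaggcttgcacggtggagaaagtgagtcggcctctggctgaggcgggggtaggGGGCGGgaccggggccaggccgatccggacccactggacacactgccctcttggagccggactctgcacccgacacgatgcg
A GC box was found in 35.7% of 32851 RefSeq promoters of the same length. *Tgfb1* held 6, *Ltbp2* 2 and the *Ltbp4* start shown 3, and the *Inhba* window held none. The GC content of the windows was 77% for *Tgfb1*, 61% for *Ltbp2*, 64.3% for *Ltbp4* and 47.7% for *Inhba*. Both strands were also searched for the AP-1 site TGANTCA (7.81% of promoters), the SMAD palindrome GTCTAGAC (0.213%), its shorter core GTCTG (49.6%, not held within the palindrome) and the TEAD site GGAATG (14.7%). Among these 4 windows, the only match was the GTCTG core, 3 times in *Ltbp2*. The AP-1 letters were found once, in the promoter of *Ltbp3*, and a match or its absence describes only the letters of the window.

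The members fell into contrasting patterns across classes. *Tgfb1* was highest in leukocytes and endothelial cells, *Tgfb2*, *Tgfb3*, *Ltbp1* and *Ltbp3* in mesenchymal and other structural cells, *Ltbp4* and *Lrrc32* in endothelial cells, and *Inhba* in mesenchymal cells, chondrocytes, mural cells and, after injury, neutrophils. *Ltbp2* was highest in mesenchymal cells at 3 dpi, and *Inhbb* remained below 25 CPM in every class.

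**Figure D1:**
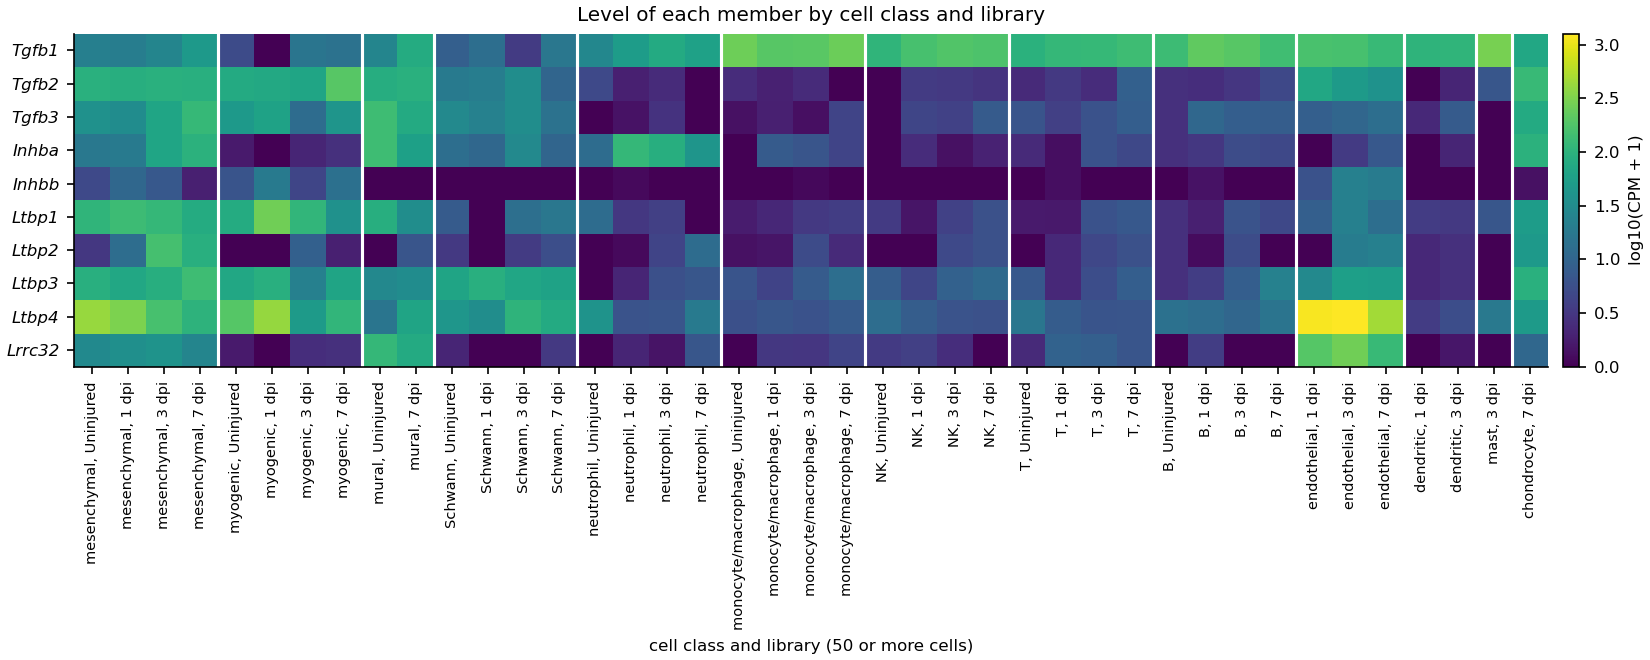
Level of each member (rows) in each cell class and library (columns), on a colour scale of log10(CPM + 1), for classes with at least 50 cells in the library. *Tgfb1* is high in the leukocyte columns, *Ltbp4* and *Lrrc32* in the endothelial columns, and the other members mainly in mesenchymal cells, chondrocytes, mural and myogenic cells.

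*Tgfb1*, the ligand best known from leukocytes and platelets, was the only member whose level over all leukocytes was above that of mesenchymal cells in each of the 4 libraries. In monocytes and macrophages it stood at 261 CPM (242 to 281) in Uninjured, 199 (192 to 207) at 1 dpi, 205 (194 to 217) at 3 dpi and 255 (229.5 to 282) at 7 dpi. The Uninjured and 7 dpi levels were above those at 1 and 3 dpi, and their intervals did not overlap those of 1 and 3 dpi. Macrophages carrying at least 2 of *C1qa*, *C1qb* and *C1qc* held 228, 191, 232 and 217 CPM in order of time, and monocytes carrying *Ly6c2* without these held 322, 205, 190 and 299 CPM. B cells held 135 CPM in Uninjured, 224 at 1 dpi, 199 at 3 dpi and 139 at 7 dpi, with the highest value at 1 dpi. NK cells held 105 CPM in Uninjured, 156 at 1 dpi, 182 at 3 dpi and 172 at 7 dpi, lowest in Uninjured. T cells held 94.6 CPM in Uninjured, 115 at 1 dpi, 119 at 3 dpi and 137 at 7 dpi. In neutrophils the level was lower than in the other leukocytes, between 26.7 and 78.8 CPM, and the 50 mast cells at 3 dpi held 291 (217 to 382) CPM.

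Mesenchymal cells carried less *Tgfb1* than leukocytes at every time point, and the gap narrowed towards 7 dpi. They held 20.9 CPM (19.9 to 21.9) in Uninjured, 19.5 (18.1 to 21.0) at 1 dpi, 24.6 (23.3 to 25.9) at 3 dpi and 47.1 (45.3 to 48.9) at 7 dpi. The first 3 libraries lay close together, and the interval of 7 dpi lay above those of the other three. The level at 7 dpi was 2.25 (2.12 to 2.40) times that in Uninjured, and its ratio to 3 dpi was 1.92 (1.79 to 2.05). The makeup of the class also changed, as given below. Interstitial cells (*Smoc2*, *Col15a1*) held 26.7 CPM in Uninjured and 28.8 at 7 dpi, and adventitial cells (*Pi16*, *Dpp4*) 12.6 and 24.7. Injury cells (*Cxcl5*, *Prg4*, *Timp1*) held 22.7 and 39.7 CPM. Osteochondral progenitor cells (*Lrrc15*, *Postn*, *Cthrc1*), mostly found at 7 dpi, held 54.5 CPM then. Over all leukocyte classes *Tgfb1* was 181 CPM in Uninjured, 165 at 1 dpi, 159 at 3 dpi and 177 at 7 dpi. The level in leukocytes was thus 8.66 (8.01 to 9.35) times that of mesenchymal cells in Uninjured and 3.77 (3.48 to 4.07) times at 7 dpi. The chondrocytes of 7 dpi carried 70.9 (67.5 to 74.3) CPM, above the mesenchymal cells of the same library by 1.51 (1.42 to 1.6)-fold. Chondrocytes with a UMI of *Col10a1*, the collagen of hypertrophic cartilage, held 83.3 (75.9 to 91.2) CPM and those without held 67.1 (63.4 to 71.0) CPM, a ratio of 1.24 (1.11 to 1.38).

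Counted over all kept cells, the class that held most *Tgfb1* UMIs changed with time, which reflects both the level per class and the number of cells captured. Mesenchymal cells held 55.5% (53.7 to 57.3) of all *Tgfb1* UMIs in Uninjured, 10.7% (9.96 to 11.5) at 1 dpi, 26.9% (25.7 to 28.2) at 3 dpi and 43.2% (42.0 to 44.4) at 7 dpi, with Clopper-Pearson intervals. Monocytes and macrophages held 24.4% (22.8 to 25.9), 42.6% (41.3 to 43.8), 23.0% (21.9 to 24.2) and 6.05% (5.47 to 6.67). At 1 dpi they were thus the leading class for *Tgfb1*, and B cells followed with 16.0% (15.1 to 17.0). Chondrocytes held 27.3% (26.2 to 28.4) at 7 dpi. For *Ltbp4* the mesenchymal share was 98.0% (97.8 to 98.1) in Uninjured and 71.3% (70.3 to 72.3) at 7 dpi. Of all kept cells, mesenchymal cells made up 81.2% in Uninjured, 39.0% at 1 dpi, 47.5% at 3 dpi and 49.3% at 7 dpi. Chondrocytes made up 22.2% at 7 dpi.

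**Figure D2:**
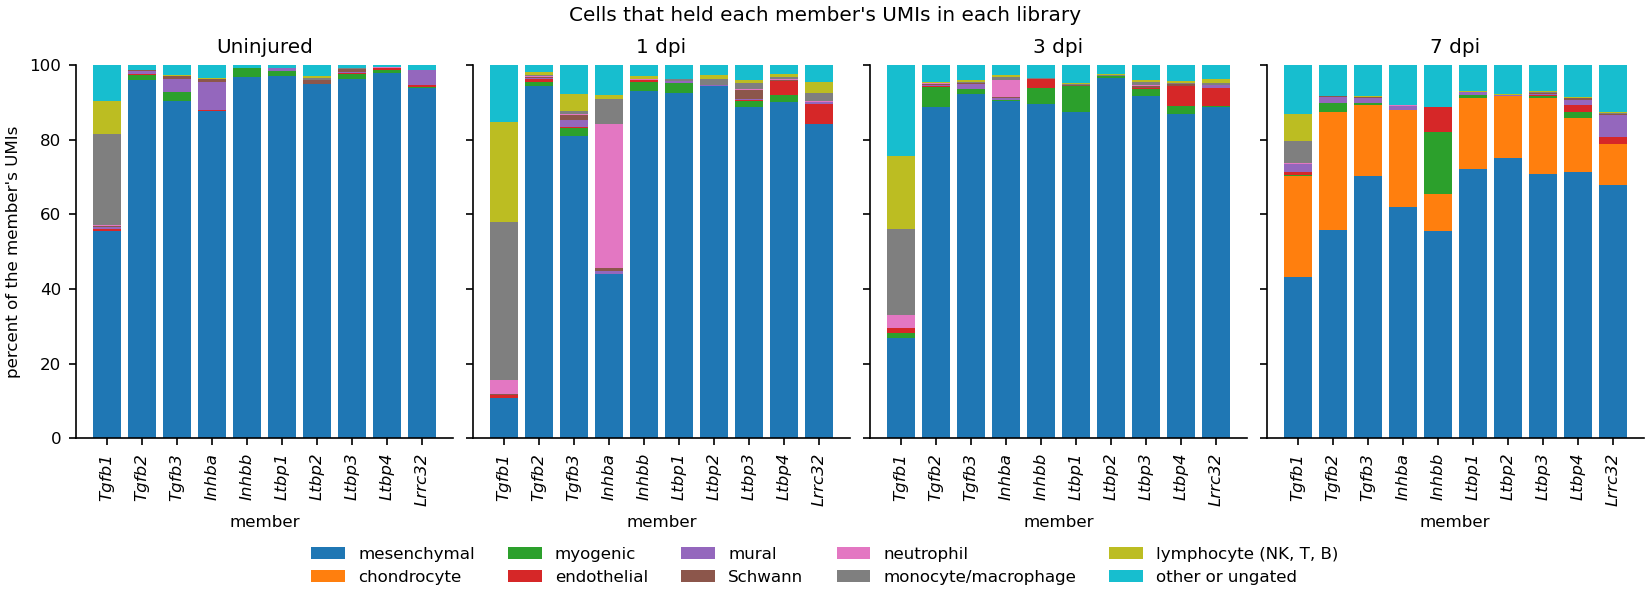
Share of each member's UMIs (percent of the UMIs of that gene in all kept cells of a library) held by each cell class, as stacked bars by library. Mesenchymal cells hold most UMIs of nearly every member, while most *Tgfb1* UMIs at 1 dpi lie in leukocytes and a large part of *Inhba* UMIs at 1 dpi lies in neutrophils.

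*Tgfb1* was also carried by endothelial cells, at 162 (125 to 207) CPM at 1 dpi, 156 (120.1 to 198) at 3 dpi and 124 (88.4 to 169) at 7 dpi, with overlapping intervals. Mural cells, the pericytes and smooth muscle cells of vessels, passed 50 cells in Uninjured and at 7 dpi only. Their *Tgfb1* was 24.9 (15.2 to 38.4) CPM in Uninjured and 81.3 (68.0 to 96.4) CPM at 7 dpi, a ratio of 3.27 (2.03 to 5.53). The mural cells of 7 dpi carried on average 3.29 of the 8 mesenchymal markers, against 1.54 in Uninjured, and the part of this in their member levels was not tested. Myogenic cells and Schwann cells held the least, from 0 to 15.2 CPM and from 2.51 to 16.2 CPM.

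*Tgfb2*, the ligand with a major part in heart, palate and skeletal development, was steady in mesenchymal cells. It held 93.2 CPM (91.1 to 95.4) in Uninjured, 87.1 (84.1 to 90.2) at 1 dpi, 91.8 (89.3 to 94.4) at 3 dpi and 90.4 (87.9 to 92.9) at 7 dpi. The intervals overlapped for every pair of libraries but Uninjured and 1 dpi, and 7 dpi over Uninjured gave 0.969 (0.935 to 1.01), an interval that includes 1. Within the class the subsets moved differently. Adventitial cells (*Pi16*, *Dpp4*) fell from 122 (118 to 126) CPM in Uninjured to 57.3 (49.0 to 66.6) CPM at 7 dpi, while interstitial cells (*Smoc2*, *Col15a1*) stayed between 74.1 and 82.5 CPM. Osteochondral progenitor cells, marked by *Lrrc15*, *Postn* and *Cthrc1* and mostly found at 7 dpi, held 105 (101 to 109) CPM then, and chondrocytes held 122 (117 to 126) CPM. Leukocytes as a whole carried 1.24 to 3.998 CPM.

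Myogenic cells, which include satellite cells and their descendants, carried 77.3 CPM (63.7 to 93.0) in Uninjured, 74.1 (52.2 to 102) at 1 dpi, 64.9 (57.8 to 72.7) at 3 dpi and 195 (170.1 to 222) at 7 dpi of *Tgfb2*. The first 3 libraries overlapped and 7 dpi stood apart, 3 (2.51 to 3.58) times above 3 dpi. Myogenic cells with *Pax7*, the satellite cell gene, and without *Myog*, a gene of differentiating myoblasts, held 248 (207 to 294) CPM at 7 dpi and those with *Myog* 125 (95.8 to 159.5) CPM, without overlap. The same order was seen at 3 dpi, with 82.0 and 51.0 CPM. Mural cells held 84.6 CPM in Uninjured and 93.6 CPM at 7 dpi, and endothelial cells 71.1, 47.9 and 37.1 CPM at 1, 3 and 7 dpi. Cells with *Myog* made up 39 of 195 myogenic cells in Uninjured, 0 of 97 at 1 dpi, 103 of 348 at 3 dpi and 73 of 214 at 7 dpi. The part of this makeup in the myogenic levels of any member was not tested.

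*Tgfb3*, a ligand with roles in palate fusion and cartilage, was higher in mesenchymal cells at 3 and 7 dpi. It held 36.0 CPM (34.6 to 37.3) in Uninjured, 31.4 (29.5 to 33.3) at 1 dpi, 65.4 (63.3 to 67.5) at 3 dpi and 120.3 (118 to 123) at 7 dpi. The highest value was at 7 dpi and no pair of intervals overlapped. The level at 3 dpi was 2.08 (1.95 to 2.23) times that at 1 dpi, and the level at 7 dpi 3.35 (3.20 to 3.50) times that in Uninjured. The first of these stood at the 2-fold limit, and its log2 value of 1.06 was 0.82 with the SD limit on linear counts, 0.65 as a mean over cells and 0.52 in thinned cells, all below it. The subsets with the highest levels at 7 dpi were the osteochondral progenitor cells, with 143 (138 to 147) CPM, and the tendon cells (*Tnmd*, *Scx*), with 133 (117 to 151) CPM. Interstitial cells also went from 35.2 (31.6 to 39.0) CPM at 3 dpi to 74.6 (66.6 to 83.2) CPM at 7 dpi, whereas adventitial cells held 29.8 and 42.7 CPM. Chondrocytes at 7 dpi held 77.6 (74.1 to 81.2) CPM, less than the mesenchymal cells of that library by 1.55 (1.47 to 1.63)-fold. Mural cells went the other way, from 138 (114 to 166) CPM in Uninjured to 78.8 (65.8 to 93.7) CPM at 7 dpi, and myogenic cells held 46.5 CPM in Uninjured, 60.1 at 1 dpi, 11.5 at 3 dpi and 40.7 at 7 dpi, lowest at 3 dpi.

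In mesenchymal cells a member was counted as changed when its CPM differed by 2-fold or more between 2 libraries and the library with more of its UMIs held at least 20, and all 10 members reached that number in each comparison. Between Uninjured and 1 dpi, 2 members were higher at 1 dpi (*Inhbb* and *Ltbp2*), where 9.33% of 14744 genes were 2-fold or more higher, and 0 were lower, where 5.6% of genes were lower. Between 1 and 3 dpi, 3 were higher at 3 dpi (*Tgfb3*, *Inhba* and *Ltbp2*), against 7.16% of 14547 genes, and 0 were lower, against 6.04%. From 3 to 7 dpi, 0 were higher, against 12% of 15254 genes, and 1 was lower (*Inhbb*), against 7.34%. Over the whole course, 4 of 10 were higher at 7 dpi than in Uninjured (*Tgfb1*, *Tgfb3*, *Inhba* and *Ltbp2*), against 18.4% of 15513 genes, and 2 were lower (*Inhbb* and *Ltbp4*), against 11.2%. The median log2 ratio of the members in that comparison was 0.29, and that of all genes 0.08. These counts compare single libraries, and from 3 to 7 dpi they depend on the scaling and on which cells were kept. There, 3 members were higher (*Tgfb1*, *Tgfb3* and *Inhba*) and 2 lower (*Inhbb* and *Ltbp4*) when every cell was thinned to 1000 UMIs, and 3 were higher and 1 lower in cells without neutrophil genes. The shares of all genes were not computed under these alternatives, so these counts cannot be set against the 12% and 7.34% above.

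**Figure D3:**
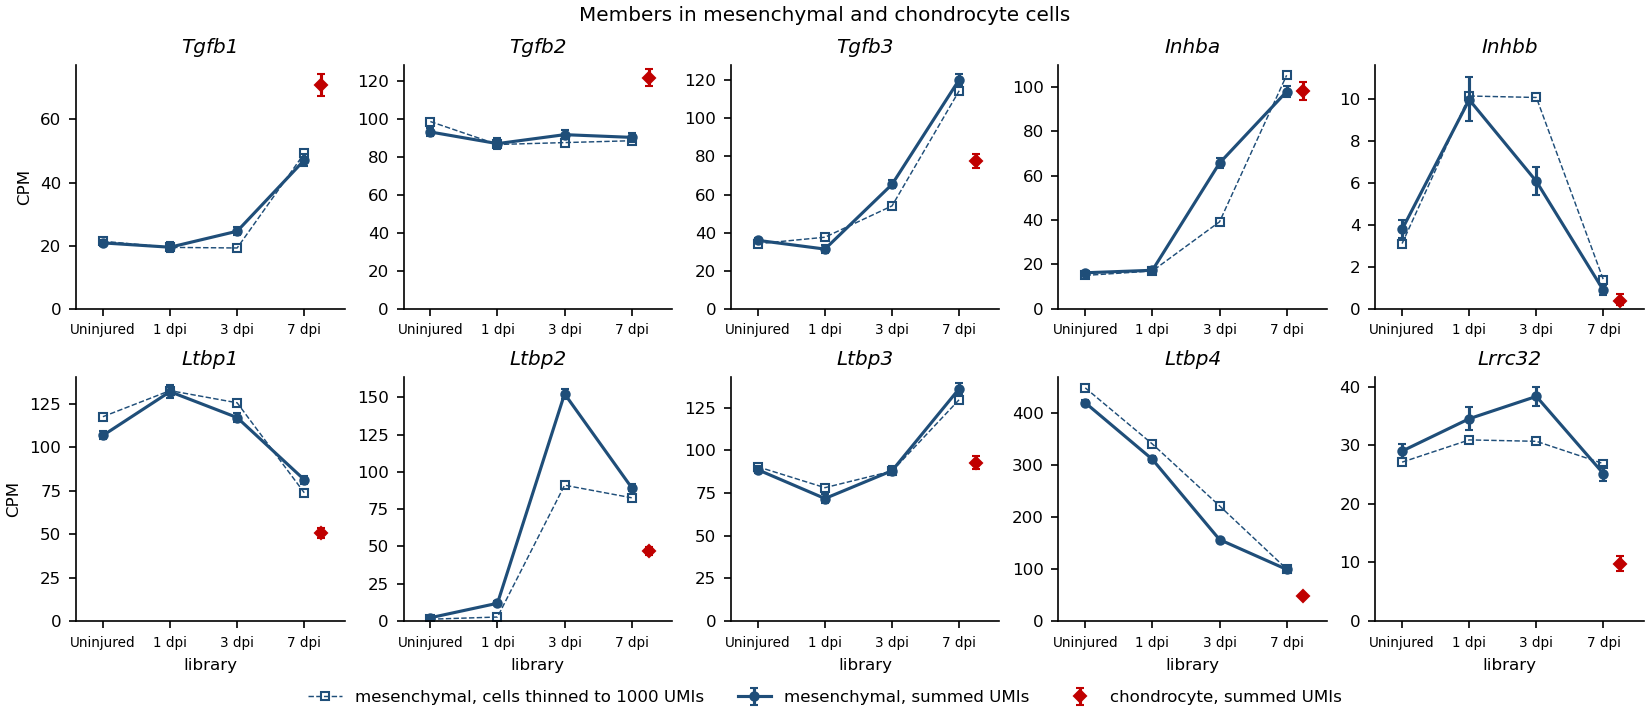
CPM of the 10 members in mesenchymal cells by library, evenly spaced in order of time, with 1 library per time point. Intervals are 95% Poisson intervals for counting error. Dashed lines give the same class with cells thinned to 1000 UMIs, and a separate point gives the chondrocytes of 7 dpi. Without thinning, *Ltbp4* falls throughout, *Ltbp2* and *Inhba* rise between 1 and 3 dpi, and *Tgfb1* and *Tgfb3* are highest at 7 dpi. *Tgfb2* is nearly level. *Inhbb* peaks at 1 dpi without thinning, while its thinned levels at 1 and 3 dpi are nearly equal.

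*Inhba*, the subunit of activin A, rose in mesenchymal cells at 3 and 7 dpi. It held 16.3 CPM (15.4 to 17.2) in Uninjured, 17.4 (16.0 to 18.8) at 1 dpi, 65.7 (63.6 to 67.9) at 3 dpi and 97.9 (95.4 to 101) at 7 dpi. The intervals of Uninjured and 1 dpi overlapped, while those of 3 and 7 dpi lay above both and apart from each other. At 3 dpi, 74 of 5989 mesenchymal cells held 65.5% of the *Inhba* UMIs, so these intervals understate the spread between cells. Over the alternatives, the log2 ratio of 7 dpi over 3 dpi ranged from -0.11 to 1.46, against 0.58 in the main setting. The level at 3 dpi was 3.78 (3.47 to 4.13) times that at 1 dpi, and 7 dpi was 1.49 (1.43 to 1.56) times 3 dpi and 6.02 (5.67 to 6.41) times Uninjured. Without any filter on cells, the log2 ratio of 7 dpi over Uninjured was 1.00 in place of 2.59, and that of 1 dpi over Uninjured was -1.62 in place of 0.10. By subset, the injury cells (*Cxcl5*, *Prg4*, *Timp1*) held 21.1 CPM at 1 dpi, 88.1 (84.6 to 91.7) CPM at 3 dpi and 56.6 (50.8 to 62.9) CPM at 7 dpi. The 3951 osteochondral progenitor cells of 7 dpi held 137 (133 to 142) CPM, 4.13 (3.50 to 4.92) times the interstitial and 10.7 (7.75 to 15.1) times the adventitial cells of that library. The 55 such cells at 3 dpi already held 161 (131 to 195) CPM. Adventitial and interstitial cells stayed low, at 6.15 to 17.5 and 18.3 to 33.2 CPM over the 4 libraries. Tendon cells held 63.7 CPM in Uninjured, 63.8 at 3 dpi and 66.4 at 7 dpi, with little difference. Chondrocytes held 98.3 (94.4 to 102) CPM, below the osteochondral progenitor cells by a ratio of 0.716 (0.679 to 0.754).

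The makeup of the mesenchymal class changed over the same libraries. Injury cells numbered 95, 368, 1945 and 957 in order of time, osteochondral progenitor cells 1, 6, 55 and 3951, interstitial cells 4246, 1945, 1963 and 808, and adventitial cells 3275, 926, 855 and 402. A level over the whole class therefore moves with these numbers as well as with the levels inside each subset. Tendon cells and mesenchymal cells that entered no subset are not in these numbers, and no levels are given for the latter.

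**Figure D4:**
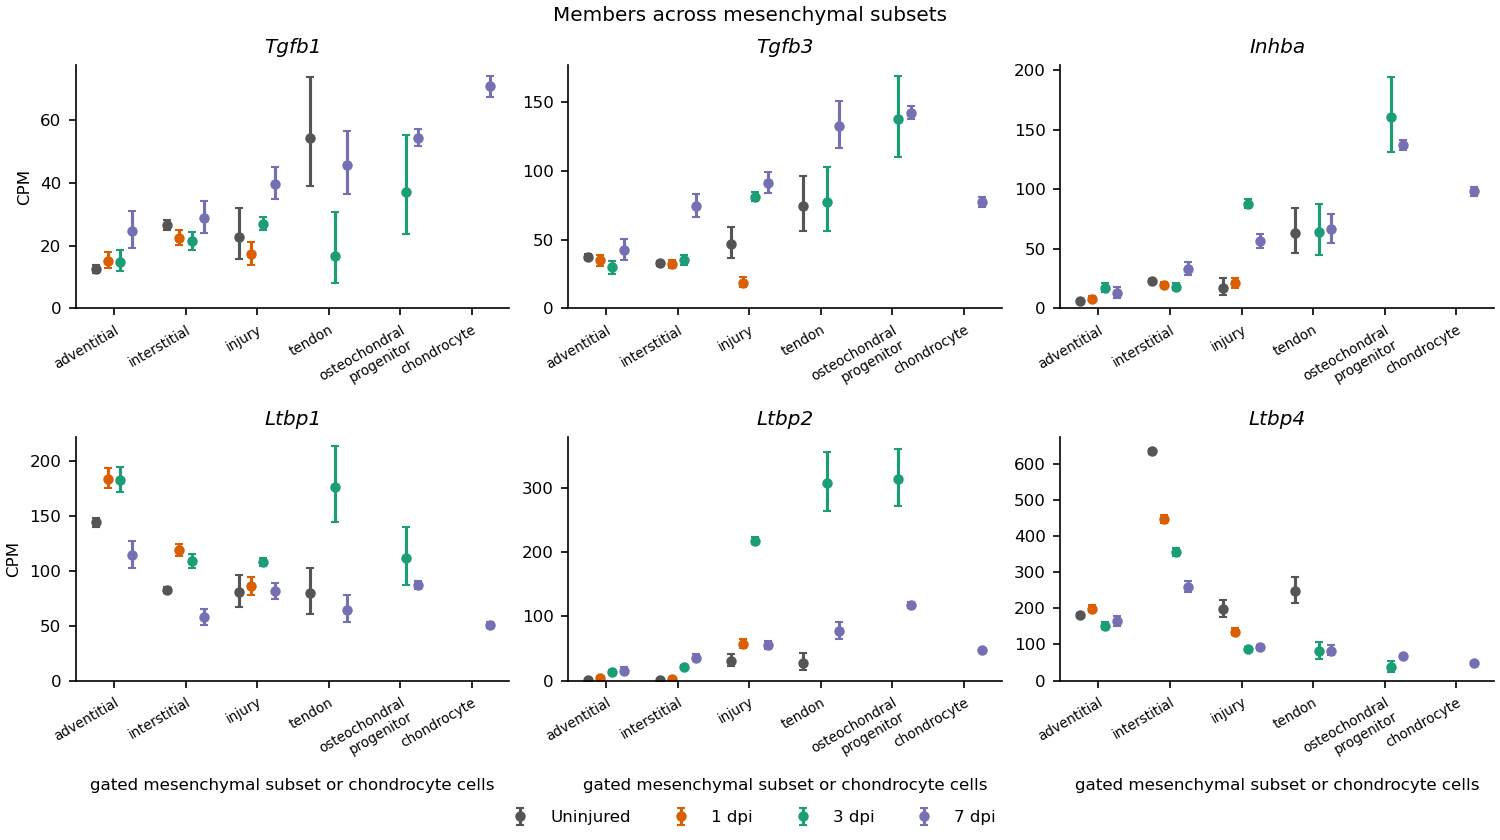
CPM of 6 members by mesenchymal subset and in chondrocytes, 1 point per library with 95% Poisson intervals for counting error, for subsets with at least 50 cells. *Ltbp4* is highest in interstitial cells in all 4 libraries, *Inhba* and *Tgfb3* in osteochondral progenitor cells at 3 and 7 dpi, and *Ltbp2* in osteochondral progenitor, tendon and injury cells at 3 dpi.

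The *Inhba* UMIs of 3 dpi were concentrated in few cells. A UMI was found in 739 of 5989 mesenchymal cells, or 12.3%, against 1.06% of B cells, which had a median of 1777 UMIs where mesenchymal cells had 6178. The most in any cell was 171, where it was 12 in Uninjured and 24 at 1 dpi. At 7 dpi the UMIs were spread more widely, over 2276 of 10017 cells with a maximum of 80. The 74 mesenchymal cells of 3 dpi with at least 10 *Inhba* UMIs made up 1.24% of the class and held 65.5% of its *Inhba* UMIs. Their median depth was 25074 UMIs against 6054 in the other cells, and 75.7% of them were injury cells against 32.5% in the class. The 82 such cells at 7 dpi held 26.2% of the *Inhba* UMIs, and 78.0% of them were osteochondral progenitor cells against 39.4% in the class.

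Because these cells were picked by their *Inhba* UMIs, which favours deep cells, what else they carried is given as a description. At 3 dpi the gene most enriched in them was *Il11*, a fibroblast cytokine, with 68.8 CPM against 4.01 in the other mesenchymal cells. *Tagln*, an actin-binding protein of contractile cells, stood at 420 against 69.5 CPM. *Ngp*, *S100a8*, *Camp* and *S100a9*, all granule or cytosolic genes of neutrophils, were 5.70 to 10.5 times the level of the other cells. Members moved too, with *Tgfb2* at 314 against 84.4 CPM, *Ltbp2* at 430.6 against 143, *Tgfb1* at 78.9 against 22.8 and *Tgfb3* at 72.7 against 65.1. At 7 dpi the leading genes were *Crabp2*, which binds retinoic acid, at 173 against 21.9 CPM and *Spp1*, the bone matrix protein osteopontin, at 776 against 136 CPM. *Inhba* was recomputed in the mesenchymal cells without any UMI of the 4 neutrophil genes, which kept 96.6%, 21.2%, 60.6% and 92.8% of the class in order of time. It then held 16.4 CPM in Uninjured, 16.8 at 1 dpi, 37.1 at 3 dpi and 94.0 at 7 dpi. The value at 3 dpi was lower than in the whole class and still above 1 dpi, and so was the mean over cells at 3 dpi, 40.6 CPM.

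**Figure D5:**
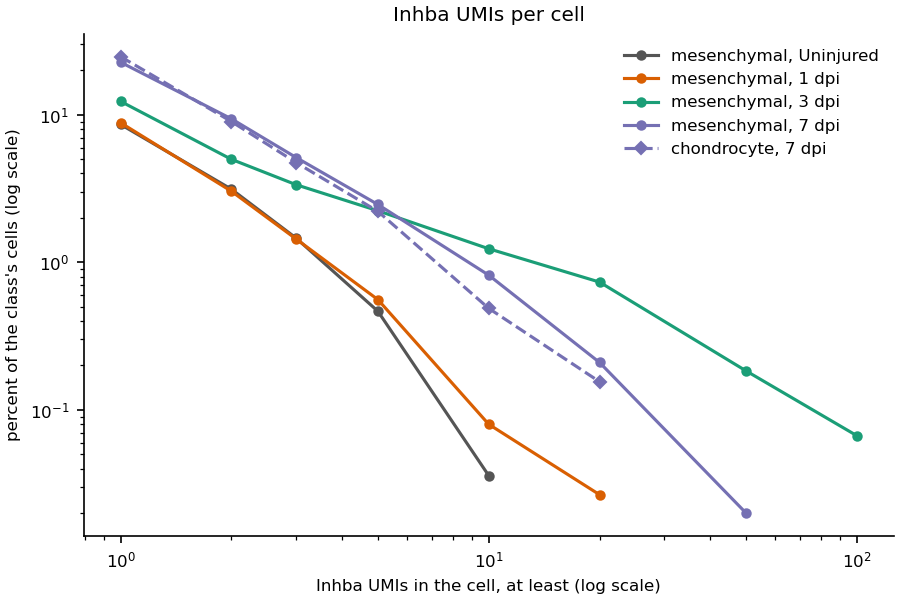
Percent of cells (log axis) carrying at least the number of *Inhba* UMIs on the x axis (log axis), for mesenchymal cells by library and for the other classes drawn. The 3 dpi curve has the longest tail, reaching 100 UMIs in 4 cells, while 7 dpi has the most cells with 1 to 3 UMIs.

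Neutrophils were the leukocyte class with the most *Inhba*. They held 11.4 CPM (2.36 to 33.4) in Uninjured, 116 (106 to 126) at 1 dpi, 87.3 (75.2 to 101) at 3 dpi and 40.8 (16.4 to 84.0) at 7 dpi. The Uninjured value rests on 3 UMIs in 53 cells and the 7 dpi value on 7 UMIs in 106 cells, while 1 dpi held 537 UMIs in 579 cells and 3 dpi 185 UMIs in 411 cells. The ratio of 1 dpi to Uninjured was 10.1 (3.44 to 49.2). At 1 dpi neutrophils were 6.65 (5.91 to 7.48) times the mesenchymal level and held 38.7% (36.2 to 41.4) of all *Inhba* UMIs, against the 44.1% (41.5 to 46.7) of mesenchymal cells. The 67 neutrophils with at least 3 *Inhba* UMIs held 78.4% of these, at a median depth of 14385 UMIs against 4448. They too were picked by their *Inhba* UMIs, which favours deep cells, so what else they carried is a description. The genes most enriched in them were genes of mitosis and DNA replication such as *Cenpf*, 438 against 65.5 CPM, *Hist1h3c*, *Hmmr* and *Nusap1*. Whether these cells were mature neutrophils was not tested. *Tgfb1* in these cells was 42.0 CPM against 53.3 in the other neutrophils.

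In monocytes and macrophages 5 members reached 20 UMIs between Uninjured and 1 dpi, and 2 of them were higher at 1 dpi, *Inhba* and *Lrrc32*, where 18.1% of 10900 genes were 2-fold or more higher. None of the 5 was lower, where 4.29% of genes were. *Inhba* had 0 UMIs in Uninjured, which allows up to 1.09 CPM at 3 UMIs, and 6.87 (5.55 to 8.41) CPM at 1 dpi, 6.33 times that bound. B cells and NK cells of 1 dpi held 2.18 (1.05 to 4.01) and 1.46 (0.302 to 4.27) CPM of *Inhba*. *Lrrc32* also had 0 UMIs in Uninjured and 2.19 (1.48 to 3.13) CPM at 1 dpi, 2.02 times the same bound. Neither multiple includes the counting error of the 1 dpi level. B cells and NK cells of 1 dpi held 2.62 (1.35 to 4.57) and 2.93 (1.07 to 6.37) CPM of *Lrrc32*, so its level in monocytes and macrophages was not above that of these classes and is not read as expression. With cells thinned to 1000 UMIs, 15 and 7 UMIs of these genes were left at 1 dpi, and 0 members passed. Mural cells held 138 (114 to 166) CPM of *Inhba* in Uninjured and 57.3 (46.2 to 70.2) CPM at 7 dpi, a ratio of 0.415 (0.312 to 0.552). The Uninjured mural level was 8.49 (6.93 to 10.3) times the mesenchymal level of that library.

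*Inhbb*, the subunit of activin B, had the fewest UMIs of the members, and in mesenchymal cells it was lowest at 7 dpi. It held 3.78 CPM (3.37 to 4.24) in Uninjured, 9.95 (8.94 to 11.1) at 1 dpi, 6.07 (5.44 to 6.75) at 3 dpi and 0.876 (0.651 to 1.16) at 7 dpi, from 298, 350, 336 and 50 UMIs. The peak was at 1 dpi, 2.63 (2.25 to 3.08) times Uninjured, and the level at 7 dpi was 6.92 (5.13 to 9.52)-fold lower than at 3 dpi and 4.32 (3.19 to 5.95)-fold lower than in Uninjured. The latter log2 ratio was -2.11, and -1.18 in cells thinned to 1000 UMIs. In the thinned cells *Inhbb* held 10.13 CPM at 1 dpi and 10.06 CPM at 3 dpi, so the fall between these libraries depends on the scaling. Interstitial cells held 3.71 CPM in Uninjured, 15.7 at 1 dpi, 12.2 at 3 dpi and 1.39 at 7 dpi, and adventitial cells 2.93 CPM in Uninjured, 6.44 at 1 dpi, 15.5 at 3 dpi and 1.36 at 7 dpi, so the highest level fell at 1 dpi in interstitial and at 3 dpi in adventitial cells. Injury cells stayed between 0.818 and 4.14 CPM. Chondrocytes held 9 UMIs, or 0.376 (0.172 to 0.714) CPM. Outside the mesenchyme, *Inhbb* was found in endothelial cells, at 21.6 (9.85 to 40.9) CPM from 9 UMIs at 3 dpi, and in myogenic cells, at 3.47 to 18.0 CPM. Leukocytes as a whole held 0 to 0.137 CPM.

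*Ltbp1*, whose product can bind all 3 latent TGF-betas, changed little in mesenchymal cells. It held 107 CPM (105 to 109) in Uninjured, 132 (128 to 136) at 1 dpi, 117 (114 to 119.9) at 3 dpi and 81.3 (78.9 to 83.6) at 7 dpi. The highest level was at 1 dpi and the lowest at 7 dpi, 1.31 (1.27 to 1.36)-fold below Uninjured. Adventitial cells were above interstitial cells in all 4 libraries, with 144 CPM in Uninjured, 184 at 1 dpi, 183 at 3 dpi and 114 at 7 dpi, against 82.8 CPM in Uninjured, 119 at 1 dpi, 109 at 3 dpi and 57.8 at 7 dpi. Chondrocytes held 50.7 (47.9 to 53.7) CPM, a ratio of 0.581 (0.541 to 0.623) to the osteochondral progenitor cells. In myogenic cells *Ltbp1* stood at 80.7 CPM (66.8 to 96.7) in Uninjured, 266 (223 to 316) at 1 dpi, 109 (99.6 to 119) at 3 dpi and 36.3 (26.2 to 49.1) at 7 dpi. The 1 dpi level of these 97 cells was the highest of any class with at least 50 cells, 3.3 (2.56 to 4.26) times the Uninjured level, and the 7 dpi level the lowest of the 4. At 7 dpi *Pax7* cells without *Myog* held 62.5 (43.0 to 87.8) CPM and *Myog* cells 15.8 (6.84 to 31.2) CPM. Leukocytes held 1.24 to 4.63 CPM.

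*Ltbp2*, the family member of elastic and fibrillin fibres, had the steepest course of the 10 genes. Mesenchymal cells held 2.18 CPM (1.87 to 2.54) in Uninjured, 11.9 (10.8 to 13.1) at 1 dpi, 152 (149 to 156) at 3 dpi and 89.3 (86.9 to 91.8) at 7 dpi. It was nearly absent in Uninjured, low at 1 dpi and high at 3 and 7 dpi, with no overlap between any of the 4. The level at 1 dpi was 5.44 (4.55 to 6.54) times Uninjured, that at 3 dpi 12.8 (11.6 to 14.2) times 1 dpi, and that at 7 dpi 1.71 (1.65 to 1.77)-fold lower than at 3 dpi and 40.9 (35.1 to 47.9) times Uninjured. The injury cells carried it in every library, with 31.0 CPM (22.6 to 41.5) in Uninjured, 57.5 (51.2 to 64.3) at 1 dpi, 218 (212 to 223) at 3 dpi and 55.6 (49.9 to 61.8) at 7 dpi. They stood 27.4 (19.1 to 40.5) times above interstitial cells at 1 dpi and 10.2 (8.92 to 11.7) times at 3 dpi. Tendon cells held 27.9 CPM in Uninjured, 307 (265 to 355) CPM at 3 dpi and 77.6 (65.2 to 91.6) CPM at 7 dpi. Osteochondral progenitor cells held 314 (272 to 360.2) CPM at 3 dpi and 118 (113 to 122) CPM at 7 dpi, and chondrocytes 47.1 (44.4 to 49.9) CPM. Adventitial cells stayed below 16 CPM and interstitial cells reached 35.3 CPM. The 1 dpi value depends on the scaling and on which cells were kept, since it was 2.67 CPM from 10 UMIs, too few to be called, when cells were thinned to 1000 UMIs, against 1.20 CPM in Uninjured, 91.1 CPM at 3 dpi and 82.6 CPM at 7 dpi. In mesenchymal cells without neutrophil genes it was 5.00 CPM at 1 dpi and 2.01 CPM in Uninjured, a log2 ratio of 1.32 in place of 2.44. Without any filter on cells that log2 ratio was 0.59, under 2-fold, and that of 7 dpi over Uninjured 2.81 in place of 5.35. Leukocytes held 0.335 to 3.58 CPM.

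*Ltbp3*, known for its part in skeletal growth and tooth enamel, was highest at 7 dpi. Mesenchymal cells held 88.6 CPM (86.6 to 90.7) in Uninjured, 71.8 (69.0 to 74.6) at 1 dpi, 88.1 (85.6 to 90.6) at 3 dpi and 136 (133 to 139) at 7 dpi. The level at 7 dpi was 1.54 (1.49 to 1.59) times Uninjured. Tendon cells carried the most of the subsets, with 252 CPM in Uninjured, 183 at 3 dpi and 202 at 7 dpi. Chondrocytes held 92.6 (88.8 to 96.6) CPM. Schwann cells carried 63.7 CPM in Uninjured, 89.6 at 1 dpi, 67.8 at 3 dpi and 60.3 at 7 dpi, and *Ltbp3* and *Ltbp4* were the only members above 50 CPM in them. Myogenic cells held 72.5 CPM in Uninjured, 90.1 at 1 dpi, 21.3 at 3 dpi and 64.0 at 7 dpi, lowest at 3 dpi.

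*Ltbp4*, which stabilizes elastic fibres and binds TGF-beta1, was the member with the most UMIs in Uninjured mesenchymal cells and was lower at each later time point. It held 419.7 CPM (415 to 424) in Uninjured, 311 (305 to 317) at 1 dpi, 157 (153 to 160) at 3 dpi and 99.2 (96.7 to 102) at 7 dpi. No intervals overlapped. The level at 3 dpi was 1.99 (1.93 to 2.04)-fold lower than at 1 dpi, and the level at 7 dpi 4.23 (4.11 to 4.35)-fold lower than in Uninjured. Interstitial cells carried the most at every time point and also fell, from 634 (626 to 642) CPM in Uninjured to 447 (436 to 457) at 1 dpi, 357 (345 to 368) at 3 dpi and 259 (244 to 275) at 7 dpi. Adventitial cells held 183 CPM in Uninjured, 198 at 1 dpi, 152 at 3 dpi and 165 at 7 dpi, a narrow range. Injury cells fell from 198 CPM in Uninjured to 88.2 at 3 dpi and 91.7 at 7 dpi. The lowest levels were in the cells that appeared late, osteochondral progenitor cells with 37.1 (23.8 to 55.2) CPM at 3 dpi and 68.9 (65.7 to 72.1) CPM at 7 dpi and chondrocytes with 48.8 (46.0 to 51.6) CPM. Osteochondral progenitor cells were 3.76 (3.49 to 4.06)-fold below interstitial cells at 7 dpi.

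Endothelial cells carried more *Ltbp4* than any other class, with 1198 (1092 to 1311) CPM at 1 dpi, 1269 (1163 to 1382) at 3 dpi and 464 (393 to 545) at 7 dpi. The first pair overlapped and 7 dpi was 2.73 (2.28 to 3.3)-fold below 3 dpi, from 69, 128 and 80 cells. Myogenic cells held 191 CPM (169 to 215) in Uninjured, 415 (360 to 475) at 1 dpi, 47.8 (41.7 to 54.5) at 3 dpi and 108 (90.03 to 129) at 7 dpi, with the peak at 1 dpi and the lowest level at 3 dpi. At 3 dpi *Pax7* cells without *Myog* held 83.5 (71.3 to 97.2) CPM and *Myog* cells 8.59 (4.91 to 14.0) CPM. Mural cells, by contrast, were higher at 7 dpi, with 64.7 (52.9 to 78.3) CPM against 14.9 (7.71 to 26.1) CPM in Uninjured. Leukocytes held 5.59 to 10.1 CPM.

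*Lrrc32* was most abundant in endothelial and mural cells. Endothelial cells held 193 (152 to 241) CPM at 1 dpi, 271 (223 to 325) at 3 dpi and 124 (88.4 to 169) at 7 dpi, the last below 3 dpi without overlap. Mural cells held 114 (92.2 to 140.3) CPM in Uninjured and 77.6 (64.6 to 92.4) CPM at 7 dpi. Mesenchymal cells held 29.0 CPM (27.8 to 30.2) in Uninjured, 34.6 (32.6 to 36.6) at 1 dpi, 38.4 (36.8 to 40.0) at 3 dpi and 25.2 (23.9 to 26.5) at 7 dpi, with the highest level at 3 dpi and less than 2-fold between any pair. Tendon cells (1.33 to 12.3 CPM) and chondrocytes (9.78 CPM) carried little. T cells held 1.35 CPM in Uninjured, 8.34 at 1 dpi, 7.61 at 3 dpi and 5.56 at 7 dpi. Over the 4 libraries, 68 T cells with *Foxp3*, the gene that defines regulatory T cells, held 70.0 (41.5 to 111) CPM from 18 UMIs. T cells with *Cd4* and neither *Foxp3* nor *Cd8a* held 10.6 (6.06 to 17.2) CPM in 440 cells, and those with *Cd8a* and no *Cd4* 1.20 (0.248 to 3.52) CPM in 619 cells, so no intervals overlapped between the 3 T cell subsets, whose median depths were 3360, 2937 and 3541 UMIs. *Tgfb1* differed less among them, with 155.6, 129.8 and 113.5 CPM in the same order.

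The other genes of the pathway were counted in mesenchymal cells over 44 genes in 5 lists, at the same 2-fold limit. Between Uninjured and 7 dpi, 9 of 42 genes tested were higher, where 18.4% of all genes were, and 6 lower, where 11.2% were. In the successive comparisons, 3 of 42 were higher and 2 lower from Uninjured to 1 dpi, beside 9.33% and 5.6% of all genes. From 1 to 3 dpi 7 of 42 were higher and 2 lower, beside 7.16% and 6.04%, and from 3 to 7 dpi 5 of 41 were higher and 5 lower, beside 12% and 7.34%. Of 9 receptors and coreceptors tested, 0 were higher at 7 dpi than in Uninjured and 4 lower, *Tgfbr3*, *Eng*, *Acvrl1* and *Acvr2b*. *Tgfbr3*, the coreceptor betaglycan, held 179.6 CPM in Uninjured, 299 at 1 dpi, 163 at 3 dpi and 59.0 at 7 dpi. Of 12 genes for latency, matrix storage and release, 4 were higher at 7 dpi than in Uninjured, *Nrros*, *Fbn2*, *Emilin1* and *Thbs1*, and 1 was lower, *Itgb6*. *Fbn2*, the developmental fibrillin, held 4.49 CPM in Uninjured, 1.45 at 1 dpi, 17.3 at 3 dpi and 162 at 7 dpi. *Nrros*, a macrophage anchor of latent TGF-beta1, held 0.241 CPM in Uninjured, 2.76 at 1 dpi, 1.91 at 3 dpi and 2.09 at 7 dpi. The share of mesenchymal cells with *Ptprc* was 0.562%, 6.52%, 4.58% and 7.72% in the same order, and its part in the *Nrros* level was not tested.

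Of 10 antagonists and inhibitors, 1 was higher at 7 dpi than in Uninjured, *Fstl3*, and 1 lower, *Fst*, where 18.4% and 11.2% of all genes were. *Fst*, which encodes follistatin, the extracellular trap of activins, held 317 CPM in Uninjured, 224 at 1 dpi, 172 at 3 dpi and 113 at 7 dpi. Its relative *Fstl3* held 5.92 CPM in Uninjured, 6.29 at 1 dpi, 8.31 at 3 dpi and 13.9 at 7 dpi. *Inha*, the inhibin alpha subunit that turns an activin subunit into an inhibin, held 2.06 CPM in Uninjured, 1.65 at 1 dpi, 1.57 at 3 dpi and 2.80 at 7 dpi. *Fst* was lower at each later time point, and the 7 dpi level was 2.81-fold below that in Uninjured.

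Of 8 response genes, 4 were higher at 7 dpi than in Uninjured, *Col1a1*, *Fn1*, *Tagln* and *Acta2*, and 0 were lower. Of all genes, 18.4% were higher and 11.2% lower in that comparison. *Tgfbi* held 211 CPM in Uninjured, 187 at 1 dpi, 203 at 3 dpi and 252 at 7 dpi. *Ccn2*, a matricellular gene, held 159 CPM in Uninjured, 329.7 at 1 dpi, 585 at 3 dpi and 197 at 7 dpi, with its highest level at 3 dpi. *Col1a1*, the main collagen of bone, held 4922 CPM in Uninjured, 1781 at 1 dpi, 4242 at 3 dpi and 13982 at 7 dpi, lowest at 1 dpi. *Tagln* held 9.03 CPM in Uninjured, 9.84 at 1 dpi, 80.8 at 3 dpi and 524 at 7 dpi and *Acta2*, smooth muscle actin, 8.91 CPM in Uninjured, 8.79 at 1 dpi, 163 at 3 dpi and 892 at 7 dpi, both highest at 7 dpi. The 3 intracellular Smads tested, *Smad2*, *Smad3* and *Smad4*, stayed within 2-fold in all 4 comparisons.

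Likeness between genes was computed as the Pearson correlation of log2(CPM + 1) over 41 combinations of class and library with at least 50 cells, among 13041 genes. The combinations share 4 libraries and differ in depth, so the values are a description. *Tgfb1* was most like *Gm13212* (r = 0.86), *Gch1* (0.84) and *9930111J21Rik2* (0.84), *Tgfb2* like *Rbfox2* (0.93), *Ghr* (0.92) and *Maged1* (0.92), and *Tgfb3* like *Obsl1* (0.89), *Cacna2d1* (0.88) and *Zfp354c* (0.88). *Inhba* had the weakest likeness to any gene, with *Gpr27* (0.81), *Ano10* (0.80) and *Dstn* (0.75) at the top. *Inhbb* was most like *Thrsp* (0.89), *Bmp4* (0.88), which is also the transgene of these mice, and *Pcdh17* (0.87). *Ltbp1* followed *Hoxa10* (0.89), *Echdc2* (0.88) and *Prrx1* (0.87), *Ltbp2* *Tpbg* (0.84), *Timp1* (0.84) and *P4ha3* (0.83), and *Ltbp3* *Npdc1* (0.92), *Myh10* (0.92) and *Ghr* (0.92). *Ltbp4* was most like the endothelial genes *Ramp2* (0.92), *Jcad* (0.91) and *Ephb4* (0.90), and *Lrrc32* like *St6galnac2* (0.90), *Spaar* (0.87) and *Eln* (0.87). *Prrx1* and *Timp1* were among the genes used to name classes or subsets. Between members, *Tgfb2* and *Ltbp1* had r = 0.85 and *Tgfb2* and *Tgfb3* 0.85, while *Tgfb1* and *Ltbp1* had r = -0.61.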

How the data were processed

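Single-cell RNA sequencing of tibial muscle from *Nse-Bmp4* mice gave 4 libraries, Uninjured and 1, 3 and 7 dpi, each from 3 pooled muscles. Reads were mapped by the authors with STAR inside Cell Ranger 5.0.0, and the UMI counts they deposited are whole numbers per cell and gene without scaling. The build named in the submitters' processing notes is the mouse GRCm38 assembly, and those notes also name Seurat 3.1.1. A down-sampling step is mentioned, but the sources used here do not say if it came before the counts. No column of other samples was present (0 columns).

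From these counts, cells were kept when log10 UMIs and log10 genes lay within 2 SD of the library mean and mitochondrial UMIs were at most 10%. The 7.5% of cells with the highest Scrublet score were removed in each library, in place of the DoubletFinder step of the methods. Classes other than chondrocytes needed at least 3 of 8 markers and 2 more than in any other list. The margin was 1 between related leukocyte lists, and none was needed between the mesenchymal and chondrocyte lists. A cell with at least 4 chondrocyte markers and at most 2 of any list other than mesenchymal was a chondrocyte, whatever its mesenchymal markers. A mesenchymal subset needed at least 3 of 6 markers and more than in any other subset list. UMIs were summed per class and library, and classes under 50 cells were left out. As each condition was 1 library, conditions were compared without any test or p-value. A call needed a 2-fold difference and at least 20 UMIs in the library with more of them, and a count of 0 was set at 3 UMIs for a bound. Total UMIs per library ranged from 91146335 to 129007669. Intervals at 95% were exact Poisson for CPM, conditional binomial for ratios and Clopper-Pearson for shares. Only the ratio interval was tested on simulated counts. These were independent Poisson draws, as the interval assumes, so the test cannot show how it holds when UMIs gather in few cells. Gene IDs matched GENCODE M21 on GRCm38 for 32158 of 32285 genes. Packages were matplotlib 3.10.9, pandas 2.3.3, numpy 2.4.6, scanpy 1.11.5, scipy 1.17.1 and anndata 0.12.19 under Python 3.11.15.

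The members, marker lists, pathway lists and alternatives were chosen with earlier results of these data known. Named besides the members are, for each member, the 3 genes with the largest correlation of log2(CPM + 1). From the pathway lists, the genes past 2-fold in at least 2 of the 3 successive comparisons were named, plus *Fst*, *Fstl3*, *Inha*, *Nrros* and *Tgfbi*. Results on some genes are not reported here. *Tgfbr3* and the genes of cells rich in *Inhba* were chosen after their values were seen. Alternatives covered the filters on cells, the marker gates, the scaling, the UMI minimum and, chosen after seeing the data, mesenchymal cells without neutrophil genes.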

Additional observations from a re-analysis of the deposited data

Results flagged for a closer look

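In 9 pairs of cell classes the same member differed by 2-fold or more in opposite directions between the same 2 libraries, with at least 20 UMIs in the higher library. The search covered the 10 members only, and the number of combinations searched is not given. How often other genes show such opposite directions was not computed. The 9 pairs therefore have no background and cannot be read as a trait of these genes. Each value below is a ratio of CPM between 2 libraries, and with 1 library per time point the difference between the classes was not tested.

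For *Tgfb3*, the ratio of 3 dpi to 1 dpi was 2.08 in mesenchymal cells and 0.192 in myogenic cells. For *Inhba*, the ratio of 7 dpi to Uninjured was 6.02 in mesenchymal cells and 0.415 in mural cells. For *Ltbp3*, the ratio of 3 dpi to 1 dpi was 2.44 in NK cells and 2.085 in monocytes and macrophages, against 0.236 in myogenic cells. The NK ratio rests on 7 UMIs at 1 dpi and 22 at 3 dpi. Monocytes and macrophages held 3.22 and 6.71 CPM of *Ltbp3*, from 44 and 38 UMIs. Mesenchymal cells held 71.8 to 136 CPM over the 4 libraries. Whether levels this low in leukocytes reflect expression was not tested. *Ltbp4* accounted for the other five pairs. Its ratio of 1 dpi to Uninjured was 2.17 in myogenic and 0.454 in T cells, which held only 5.43 to 15.6 CPM over the 4 libraries. From 1 to 3 dpi it was 3.23 in Schwann cells and 0.115 in myogenic cells. From 3 to 7 dpi it was 2.265 in myogenic cells and 0.366 in endothelial cells. From Uninjured to 7 dpi it was 4.33 in mural cells, against 0.357 in T cells and 0.2365 in mesenchymal cells. The mural cells of 7 dpi carried a mean of 3.29 mesenchymal markers and those of Uninjured 1.54, and the part of this in the *Ltbp4* ratio was not tested. Among myogenic cells, 0 of 97 carried *Myog* at 1 dpi and 103 of 348 at 3 dpi. The part of this in the myogenic ratios was not tested either.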

How the results depend on the processing

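No paired analysis was possible because each time point was 1 library and the labels give no replicate numbers. Of 516 member values under 12 alternatives, 391 stayed within their counting interval, 116 moved by more, and 9 whose interval had left out no change turned in sign. The alternatives of at least 50 UMIs and of no minimum above 1 UMI cannot move a ratio. All 43 values under each of them stayed for that reason and say nothing about stability. The largest log2 shift was 2.54, for *Ltbp2* at 7 dpi against Uninjured (5.35) without any filter on cells (2.81). Shares of all genes past 2-fold were computed in the main setting only, so the member counts under the alternatives have none beside them. Members past 2-fold between Uninjured and 1 dpi numbered 2, and 1 with cells thinned to 1000 UMIs. Without any filter on cells they also numbered 2, but *Inhba*, lower at 1 dpi, stood in place of *Ltbp2*. From 1 to 3 dpi they numbered 3, but 2 with the SD limit on linear counts, the mean over cells and thinned cells, and 4 without any filter on cells, with at least 4 class markers and with a margin of 3. At 7 dpi against Uninjured they numbered 6 under each of the 12 alternatives. From 3 to 7 dpi they numbered 1, but 3 with the SD limit on linear counts, 5 with the mean over cells, 5 with thinned cells and 4 in cells without neutrophil genes. In monocytes and macrophages from Uninjured to 1 dpi they numbered 2, but 0 with thinned cells, 1 at a minimum of 50 UMIs, 1 without neutrophil genes and 3 with no minimum above 1 UMI. The 9 log2 ratios were, from Uninjured to 1 dpi, *Tgfb2* without neutrophil genes (0.01), *Tgfb3* thinned (0.14) and *Lrrc32* with linear counts (-0.02) and with the mean over cells (-0.02). From 1 to 3 dpi they were *Tgfb1* thinned (-0.01), *Tgfb2* with linear counts (-0.13) and without neutrophil genes (-0.07) and *Lrrc32* thinned (-0.01). From 3 to 7 dpi *Inhba* changed sign without any filter on cells (-0.11). Values whose interval included no change also turned in sign, namely *Inhba* from Uninjured to 1 dpi without any filter on cells (0.10 to -1.62), *Tgfb1* there without doublet removal (-0.10 to 0.03), *Tgfb2* from 3 to 7 dpi (-0.02 to 0.01, 0.08 and 0.02 without doublet removal, with the mean over cells and thinned) and *Tgfb2* at 7 dpi against Uninjured (-0.04 to 0.03 with the mean over cells and 0.04 without mitochondrial and ribosomal protein genes in the scaling). The cause of these shifts was not tested.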
